A study of Mus musculus with 20 samples.

Results

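When a preadipocyte becomes a fat cell, the nuclear receptor PPARgamma binds many places in the genome, and some of these had already been occupied by other factors within hours of the hormonal signal. Described here are the PPARgamma binding sites of mature adipocytes (day 6) that lie where at least 3 of 5 early factors bound at 4 hours. The 4 hours peaks of RXR, GR, Stat5a and the pair C/EBPbeta and C/EBPdelta were merged wherever they overlapped, and a PPARgamma day 6 peak was taken when it touched a merged region that held peaks of 3 or more of the 5 factors. The rule found 706 such sites among 5493 PPARgamma day 6 peaks (12.9%). They are called multi-factor PPARgamma sites below, and the other PPARgamma day 6 peaks are named by their number of early factors: 3262 had 0, 724 had 1 and 801 had 2.

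The cells were 3T3-L1, a mouse preadipocyte line. All groups came from the same scheme: post-confluent cells (day 0, labelled preadipocyte) were given fetal bovine serum and 3-isobutyl-1-methylxanthine together with insulin and dexamethasone. The medium was changed to fetal bovine serum with insulin on day 2 and held fetal bovine serum without insulin thereafter. Cells were sampled on day 0, at 2 and 4 hours, on day 1 and day 2, and on day 6, which the labels call mature adipocyte. DNase I hypersensitive site sequencing (DHS-seq), which finds open chromatin, covered all 6 times. Chromatin immunoprecipitation sequencing (ChIP-seq) covered C/EBPbeta on day 0, at 2 and 4 hours and on day 2, C/EBPdelta on day 0 and at 4 hours, and GR, Stat5a and RXR at 4 hours. RNA polymerase II (RNA Pol II) was profiled on day 0 and at 4 hours, and PPARgamma on days 2 and 6.

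PPARgamma is the nuclear receptor that drives and maintains the adipocyte state, and it binds DNA as a pair with a retinoid X receptor (RXR). C/EBPbeta and C/EBPdelta are leucine zipper factors that are induced early in adipogenesis and act upstream of PPARgamma. GR is the glucocorticoid receptor, which dexamethasone activates, and Stat5a is a factor that cytokine and growth hormone receptors switch on.

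Each group had 1 library, deposited as 1 list of peaks with a start and an end and no height, score or read count. Depth is therefore unknown, and a site either is or is not overlapped by a peak of a list, by at least 1 bp. No difference could be tested against replicate spread. Shares are given with exact (Clopper-Pearson) 95% intervals, which cover counting over peaks within these libraries only. The lists differ in length, from 2076 peaks for RXR to 35389 for DHS day 1, and a longer list can overlap more sites. Peak lists hold no expression level, so the labelled cell stage was not checked against marker genes. No gene annotation or sequence of the mm9 build was used here, so sites are named by their mm9 position, counted from 1, and whether they lie in genes is not given.

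The early factors at these sites, which the rule itself selected, were mostly the C/EBPs together with 1 or more of GR, Stat5a and RXR. The merged region held 3 factors at 270 sites, 4 at 215 and all 5 at 221. A C/EBPbeta 4 hours peak overlapped 703 of the 706 PPARgamma peaks directly (99.6%, against 38.6% of all PPARgamma day 6 peaks), and a C/EBPdelta peak overlapped 687 (97.3%, against 26.9%). The steroid receptor GR was directly present at 519 sites (73.5%, against 9.94%), Stat5a at 434 (61.5%, against 9.16%) and RXR at 396 (56.1%, against 7.66%). These shares follow from how the sites were chosen and support nothing by themselves.

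Of the 12 combinations of factors found, 7 accounted for 693 sites. Every one of these 7 contained both C/EBPs. All 5 factors made up the commonest combination, with 221 sites (31.3%). The 2 C/EBPs with GR followed with 119 sites (16.9%), with GR and Stat5a at 105 (14.9%), with Stat5a at 74 (10.5%), with GR and RXR at 73 (10.3%), with RXR at 65 (9.21%) and with Stat5a and RXR at 36 (5.10%). The other 5 combinations had 13 sites together. Because the 2 C/EBPs so often shared a region, a site with both needed only 1 further factor: 448 sites still qualified when the C/EBPs were counted as 1 factor and 3 of 4 were required.

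The edge of the rule was examined once, as a description. Just outside it stood the 801 PPARgamma peaks with 2 early factors, of which 731 had both C/EBPs and nothing else of the 5. Just inside it stood the 270 sites with 3 factors. PPARgamma day 2 peaks lay at 49.7% (interval 46.2 to 53.2) of the former and at 61.9% (55.8 to 67.7) of the latter. DHS 4 hours peaks lay at 59.3% and 78.9%, and DHS day 6 peaks at 40.8% and 43.0%.

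The rule required the PPARgamma peak to touch the early region, so only the extent of the overlap is described here. It was not compared with that at other PPARgamma day 6 peaks. The overlap had a median of 708 bp, against a median PPARgamma peak width of 800 bp (305 to 2375 bp). It was under 100 bp at 4 sites, with 4 bp the smallest. The middle of the PPARgamma peak fell inside the early region at 679 sites, and 696 sites had 3 or more factor peaks directly under the PPARgamma peak. The 706 sites lay in 701 different regions, and 5 regions carried more than 1 site.

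PPARgamma itself was often at these sites by day 2. A PPARgamma day 2 peak overlapped 476 of the 706 sites (67.4%, interval 63.8 to 70.9), where 38.5% of all PPARgamma day 6 peaks had one. The share was larger in each class with more early factors: 28.5% with 0 factors, 43.2% with 1, 49.7% with 2, 61.9% with 3, 66.0% with 4 and 75.6% (69.4 to 81.1) with all 5. The intervals of 3 and 4 factors, and of 4 and 5 factors, overlapped, whereas those of 2 and 3 factors did not.

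The share with PPARgamma on day 2 differed between sites with and without RXR, the partner with which PPARgamma binds. Of the 404 sites with RXR in the region, 75.0% (70.5 to 79.1) had a PPARgamma day 2 peak, and of the 302 without RXR, 57.3% (51.5 to 62.9) did. The gap stayed when the number of factors was held equal: 74.0% with RXR against 57.4% without it among sites of 3 factors, and 74.5% against 57.1% among sites of 4. Within these smaller groups the intervals overlapped (62.4 to 83.5 against 50.1 to 64.4, and 65.4 to 82.4 against 47.1 to 66.8). For GR and Stat5a the shares over all sites lay closer together. PPARgamma day 2 peaks lay at 68.3% (64.1 to 72.2) of sites with GR and 65.0% (57.6 to 71.9) of those without it. With and without Stat5a the shares were 67.0% and 68.1%. Held to the same number of factors, sites with Stat5a had the smaller share: 56.6% (45.3 to 67.5) against 64.2% (56.8 to 71.0) at 3 factors, and 59.9% (51.3 to 68.0) against 78.1% (66.9 to 86.9) at 4. The gap for Stat5a at 4 factors was thus as wide as that for RXR and in the other direction. For GR the shares were 58.7% with it and 64.6% without it at 3 factors, and 65.9% and 66.7% at 4. At a fixed number a site with one of these factors more often lacks another, so these comparisons are not separate from each other.

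By combination, the day 2 share was 78.1% for the C/EBPs with GR and RXR, 75.6% for all 5 factors, 73.8% for the C/EBPs with RXR and 66.7% for the C/EBPs with Stat5a and RXR. The combinations without RXR were lower and close together, at 58.0% with GR, 57.1% with GR and Stat5a and 56.8% with Stat5a. The smallest combination, with 36 sites, had an interval from 49.0 to 81.4 that spanned all the others' values.

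**Figure D1:**
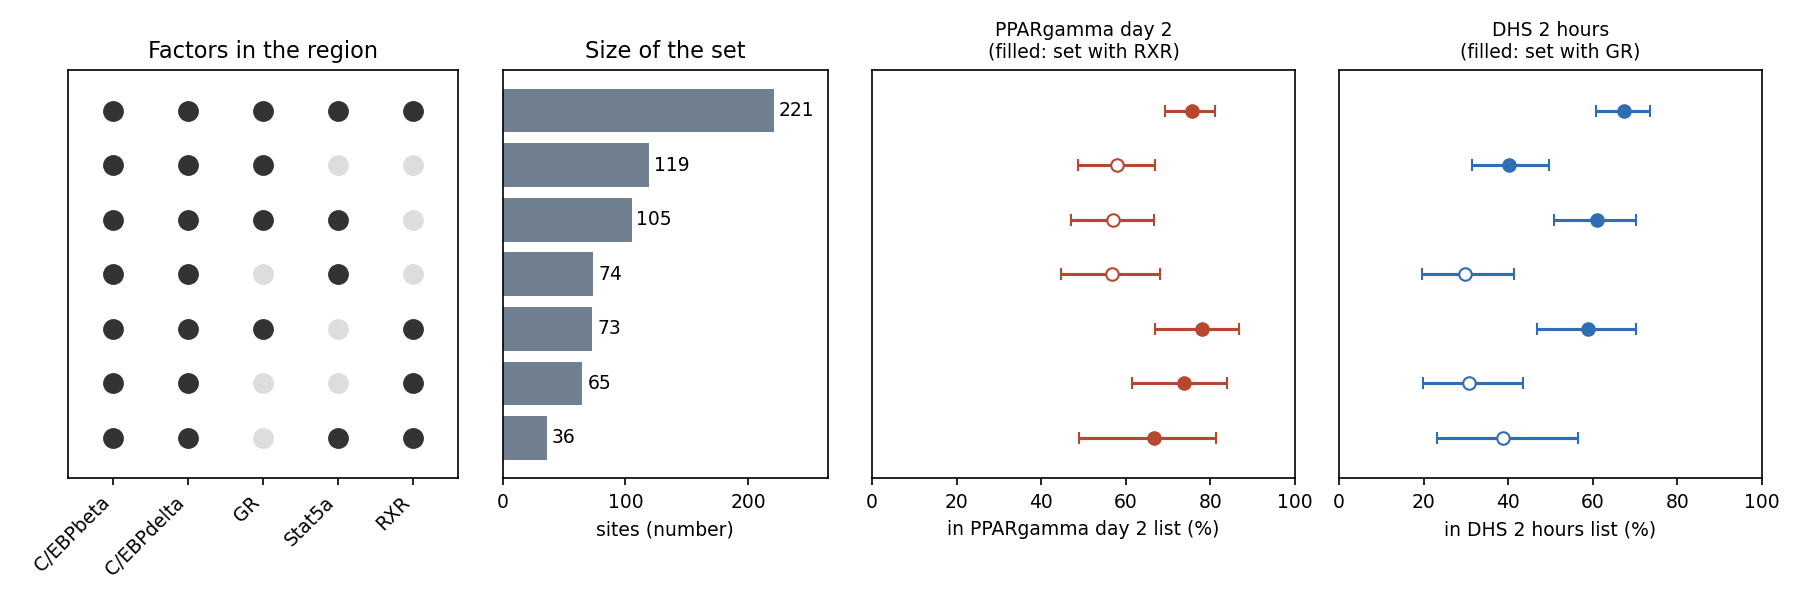
The 7 common combinations of early factors (dark dots, left) with the number of sites in each (bars), the share of those sites in the PPARgamma day 2 list (%) and the share in the DHS 2 hours list (%); points are shares with exact 95% intervals over sites, and filled points mark combinations with RXR (PPARgamma panel) or GR (DHS panel). The 4 combinations with RXR lie at 66.7% to 78.1% for PPARgamma day 2, and the 3 without it at 56.8% to 58.0%.

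C/EBPbeta was still at nearly all of these sites on day 2. Its day 2 peaks overlapped 683 sites (96.7%, interval 95.2 to 97.9), against 49.6% of all PPARgamma day 6 peaks. The share was 23.3% with 0 early factors, 74.9% with 1 and 92.5% with 2, so the largest step was from 0 factors to 1. Beyond 2 factors it moved little, from 94.8% with 3 to 98.6% with 5. The rule used C/EBPbeta at 4 hours, which 87.0% of 1-factor peaks and none of the 0-factor peaks had. The step from 0 factors to 1 and the gap from all PPARgamma day 6 peaks are thus not independent of the rule.

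On day 2, then, 466 sites (66.0%) had both PPARgamma and C/EBPbeta, and 217 (30.7%) had C/EBPbeta without PPARgamma. Only 10 had PPARgamma without C/EBPbeta, and 13 had neither. Among the 3262 peaks with 0 early factors, 13.1% had both, 15.4% PPARgamma alone, 10.2% C/EBPbeta alone and 61.3% neither. Restricted to peaks that had C/EBPbeta on day 2, a PPARgamma day 2 peak was present at 68.2% of multi-factor sites (64.6 to 71.7), 50.9% of 2-factor peaks, 48.9% of 1-factor peaks and 56.1% (52.5 to 59.7) of 0-factor peaks. Within that restriction the share no longer increased step by step with the number of factors.

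Before induction, C/EBPbeta already had a peak at 573 sites (81.2%, interval 78.1 to 84.0), against 29.9% of all PPARgamma day 6 peaks. At 2 hours it had one at 671 (95%, 93.2 to 96.5), against 30.7%. Among 2-factor peaks the C/EBPbeta shares were 70.4% on day 0 and 80.6% at 2 hours. Over the 4 C/EBPbeta times, 562 sites (79.6%) were in every list, and 98 (13.9%) were in the 2 hours, 4 hours and day 2 lists but not in that of day 0. C/EBPdelta on day 0, a short list of 2581 peaks, overlapped 212 sites (30.0%, 26.7 to 33.6), against 6.06% of all PPARgamma day 6 peaks. That share was 0.460% with 0 early factors, 11.9% with 2, 20.7% with 3, 25.6% with 4 and 45.7% (39.0 to 52.5) with 5. The rule used both C/EBPs at 4 hours, so the shares of the same factors at earlier times are not independent of it.

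The 133 sites without C/EBPbeta on day 0 had smaller shares in the DHS lists than the 573 with it, and nearly the same share with PPARgamma on day 2. DHS 4 hours peaks lay at 65.4% (56.7 to 73.4) of the former and 88.8% (86.0 to 91.3) of the latter. For DHS day 6 the shares were 26.3% (19.1 to 34.7) and 51.3% (47.1 to 55.5). PPARgamma day 2 peaks lay at 67.7% and 67.4%, with intervals of 59.0 to 75.5 and 63.4 to 71.2.

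Most multi-factor sites were outside the open-chromatin list of preadipocytes and inside those from 4 hours to day 2. A DHS peak overlapped 158 sites on day 0 (22.4%, interval 19.4 to 25.6), against 11.2% of all PPARgamma day 6 peaks. At 2 hours the count was 365 (51.7%, 47.9 to 55.4), against 14.0%. It was 596 at 4 hours (84.4%, 81.5 to 87.0), against 32.8%, then 632 on day 1 (89.5%, 87.0 to 91.7), against 42.4%, and 657 on day 2 (93.1%, 90.9 to 94.8), against 56.8%. On day 6, when PPARgamma was bound, 329 sites (46.6%, 42.9 to 50.4) were in the DHS list, against 30.8%.

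The order of these times is bound up with the length of the lists, with 35389 peaks on day 1, 11936 on day 6 and 9055 at 2 hours. When each DHS list was shortened to its 9055 widest peaks, the shares of multi-factor sites became 21.5% on day 0, 51.7% at 2 hours, 41.1% at 4 hours, 48.7% on day 1, 68.6% on day 2 and 35.1% on day 6. Day 0 stayed the lowest and day 2 the highest, but the steady climb from 2 hours to day 1 was gone. The lists also differ in peak width. Those of day 1 and day 6 hold peaks as short as 150 bp, with medians of 508 and 484 bp. In the other DHS lists the shortest peak is 251 bp and the medians are 568 to 616 bp. A ranking by width may therefore not treat the lists alike, and shares on day 1 and day 6 carry this limit. For 2-factor peaks the shortened lists gave 17.0%, 20.3%, 23.8%, 29.3%, 48.4% and 31.5% in the same order of times. On day 0 and day 6 their intervals (14.4 to 19.8 and 28.3 to 34.8) overlapped those of the multi-factor sites (18.6 to 24.7 and 31.6 to 38.8). For peaks with 0 early factors the shortened lists gave 6.32%, 3.92%, 5.55%, 6.93%, 15.5% and 17.1%. There day 6 was the highest, but its interval (15.9 to 18.5) overlapped that of day 2 (14.3 to 16.8). With the full lists, day 2 was higher for these peaks, at 39.3% against 23.6% on day 6.

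**Figure D2:**
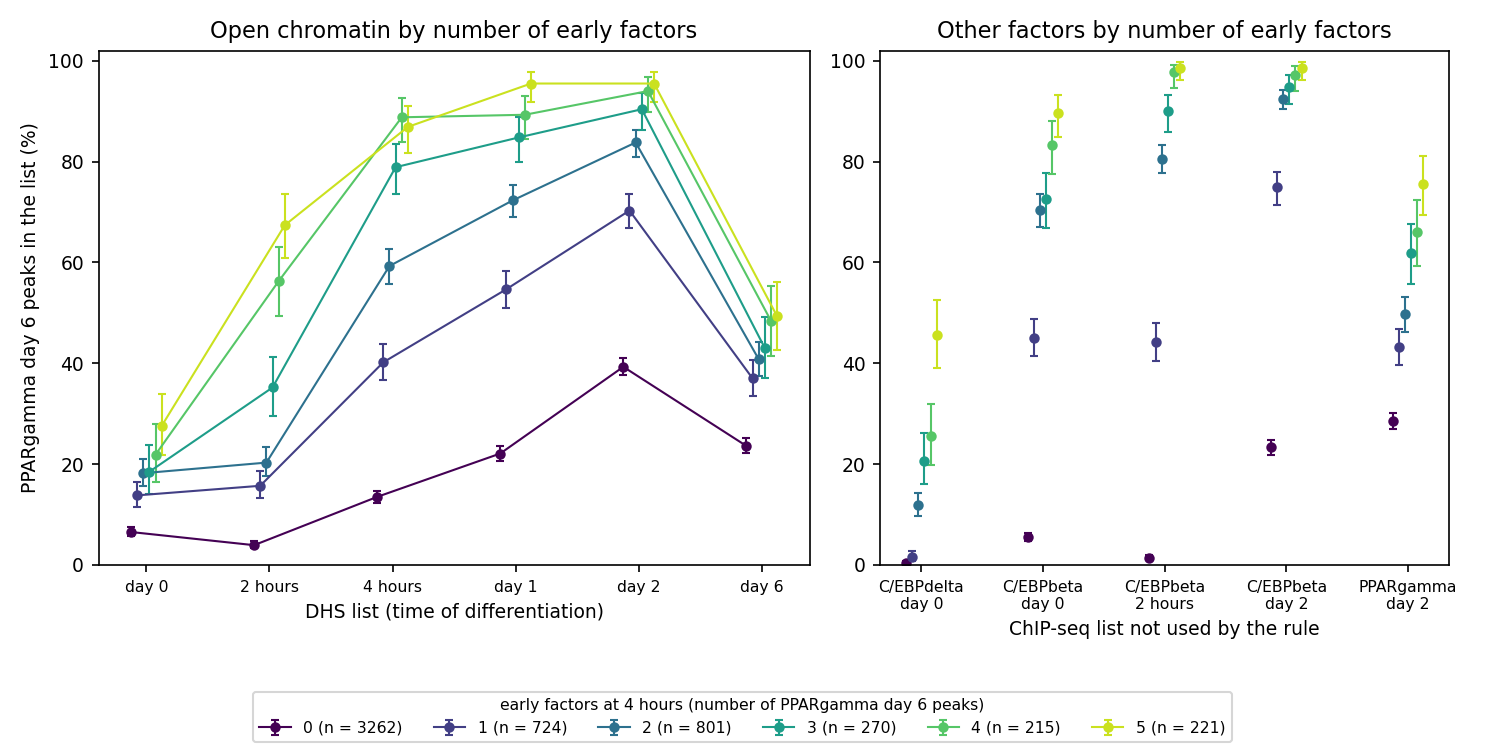
Share of PPARgamma day 6 peaks overlapped by each list (%), by the number of early factors in their region at 4 hours (colours; number of peaks in the legend); left, the DHS lists in time order; right, ChIP-seq lists that did not enter the rule; bars are exact 95% intervals over peaks. At 2 hours the DHS shares run from 3.92% with 0 factors to 67.4% with 5, and on day 6 the classes with 1 or more factors lie between 37.0% and 49.3%.

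Among the multi-factor sites, the classes of 3, 4 and 5 factors lay furthest apart in the DHS list of 2 hours. The DHS 2 hours share was 3.92% with 0 factors, 15.7% with 1, 20.3% with 2, 35.2% (29.5 to 41.2) with 3, 56.3% (49.4 to 63.0) with 4 and 67.4% (60.8 to 73.6) with 5. At 4 hours the classes of 3, 4 and 5 factors stood at 78.9%, 88.8% and 86.9%. By day 6 the spread was small: 37.0% with 1 factor, 40.8% with 2, 43.0% with 3, 48.4% with 4 and 49.3% with 5, and the intervals of the classes of 2 to 5 factors overlapped. The 0-factor peaks stood lower on day 6, at 23.6% (22.2 to 25.1).

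GR, whose ligand was in the inducing medium, showed the widest gap of GR, Stat5a and RXR between sites with and without the factor at 2 hours. Of the 526 sites with GR in the region, 58.4% (54.0 to 62.6) were in the DHS 2 hours list, and of the 180 without it, 32.2% (25.5 to 39.6) were. For DHS 4 hours the shares were 87.6% and 75.0%. With the number of factors held equal the gap was smaller or less certain: 40.5% against 30.6% among sites of 3 factors (intervals 31.8 to 49.6 and 23.2 to 38.8), and 59.8% against 38.9% among sites of 4 (52.2 to 67.0 and 23.1 to 56.5). For Stat5a the shares over all sites were 56.3% with it and 43.8% without it, but with the number held equal the order turned, to 28.9% and 38.0% at 3 factors and 54.9% and 58.9% at 4. For RXR they were 57.2% with it and 44.4% without it over all sites, 34.2% and 35.5% at 3 factors, and 51.8% and 61.0% at 4. The intervals of all 4 of these fixed-number comparisons overlapped. The lowest combinations at 2 hours were the C/EBPs with Stat5a (29.7%) and the C/EBPs with RXR (30.8%), and the highest were all 5 factors (67.4%) and the C/EBPs with GR and Stat5a (61.0%).

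The time at which a site first appeared in a DHS list was day 0, 2 hours or 4 hours for most. It was day 0 for 158 sites, 2 hours for 220 (31.2%), 4 hours for 221 (31.3%), day 1 for 64 (9.07%) and day 2 for 28 (3.97%). No site was first listed on day 6, and the upper limit of the exact interval for this count of 0 was 0.521%. The 0-factor peaks were first listed on day 0 in 6.53%, at 2 hours in 0.490%, at 4 hours in 7.17%, on day 1 in 9.60%, on day 2 in 19.5% and on day 6 in 4.05%. No DHS list contained 1719 of them (52.7%), against 15 (2.12%) of the multi-factor sites. The 2-factor peaks were first listed on day 0 in 18.2%, at 2 hours in 6.62% and at 4 hours in 34.6%. For day 1, day 2 and day 6 their shares were 17.4%, 13.1% and 0.375% (0.0773 to 1.09), and 9.74% were in no DHS list. A near absence of first listing on day 6 was thus shared with the 2-factor peaks.

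Among the 548 multi-factor sites outside the DHS day 0 list, 79.9% (76.3 to 83.2) were in that of 4 hours, against 50.4% for 2-factor, 31.2% for 1-factor and 8.00% for 0-factor peaks. Complete courses varied. The commonest were presence at all 6 times (127 sites, 18.0%), from 2 hours through day 6 (117, 16.6%), at 4 hours, day 1 and day 2 (115, 16.3%) and from 2 hours through day 2 (92, 13.0%). A further 65 sites (9.21%) were listed from 4 hours through day 6, and 51 (7.22%) on day 1 and day 2. Presence at all 6 times was recorded for 12.4% of 2-factor, 8.43% of 1-factor and 3.31% of 0-factor peaks. The course from 2 hours through day 6 was recorded for 3.75%, 4.01% and 0.215% of them, and that of 4 hours, day 1 and day 2 for 14.2%, 6.63% and 1.69%. The last of these courses was thus about as common among 2-factor peaks as among multi-factor sites.

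**Figure D3:**
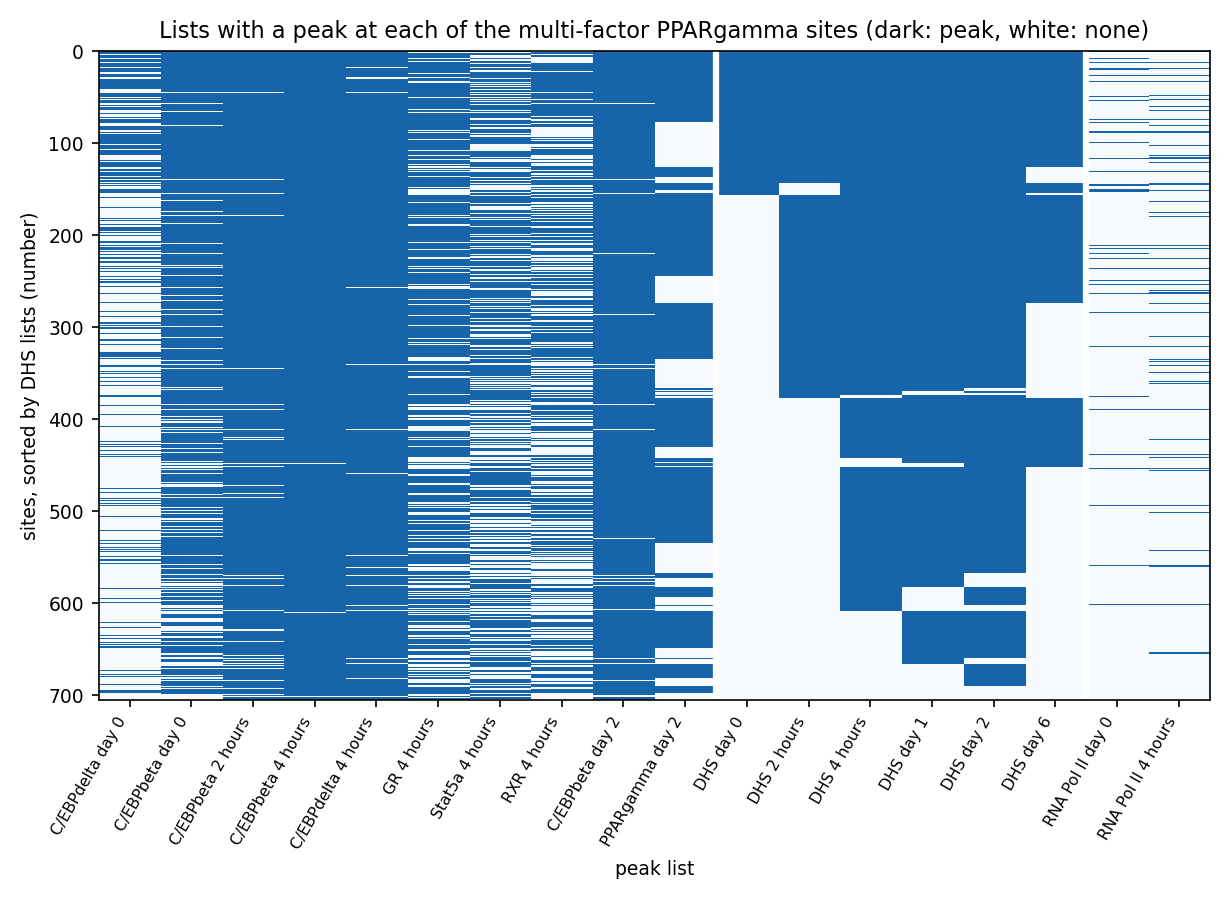
Each row is 1 of the 706 multi-factor PPARgamma sites, sorted by the DHS lists that contain it, and each column is a peak list; dark means that a peak of the list overlaps the site. Of the sites, 127 are dark in all 6 DHS columns and 15 in none, and C/EBPbeta is dark at nearly every row from 2 hours to day 2.

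Presence on day 6 was nested within day 2: all 329 sites in the DHS day 6 list were in the day 2 list as well. The same held for 97.6% of 2-factor, 95.1% of 1-factor and 78.8% of 0-factor peaks. In the other direction, 50.1% (46.2 to 54.0) of the multi-factor sites listed on day 2 were also listed on day 6, close to 47.5% with 2 factors, 50.1% with 1 and 47.3% (44.6 to 50.1) with 0. Of the sites listed at 4 hours, 53.5% (49.4 to 57.6) were listed on day 6, and here the share was greater with fewer factors: 58.1% with 2, 65.3% with 1 and 71.8% (67.3 to 75.9) with 0. Among those outside the DHS day 0 list the gap was narrower. The share was then 41.6% (36.9 to 46.3) at multi-factor sites. It was 44.8% (39.4 to 50.4) with 2 factors, 52.8% with 1 and 54.1% (47.6 to 60.5) with 0.

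The 329 sites listed as open on day 6 had more often been open and bound by the C/EBPs before induction than the other 377. DHS day 0 peaks lay at 41.6% (36.3 to 47.2) of the former and 5.57% (3.48 to 8.39) of the latter. C/EBPbeta day 0 peaks lay at 89.4% and 74.0%, and C/EBPdelta day 0 peaks at 40.1% (34.8 to 45.6) and 21.2% (17.2 to 25.7). The same direction held in the other classes. DHS day 0 peaks lay at 39.4% of 2-factor peaks in the DHS day 6 list and 3.59% of those outside it, and at 25.6% and 0.642% of 0-factor peaks. C/EBPbeta day 0 peaks lay at 84.1% and 61.0% of 2-factor peaks, and at 9.48% and 4.29% of 0-factor peaks. At the multi-factor sites, PPARgamma day 2 peaks lay at 70.8% (65.6 to 75.7) of those in the DHS day 6 list and 64.5% (59.4 to 69.3) of those outside it, where the intervals overlapped.

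Split by day 0, the 158 sites with a DHS peak then were also in the DHS day 6 list in 86.7% (80.4 to 91.6), against 35.0% (31.0 to 39.2) of the 548 others. The other classes showed a like split: 88.4% against 30.2% with 2 factors, 90.0% against 28.5% with 1 and 92.5% against 18.8% with 0. All 158 were in the DHS lists of 4 hours and day 1. C/EBPdelta was at 62.7% of them on day 0, against 20.6% of the others. Their PPARgamma day 2 share was 62.7% (54.6 to 70.2), against 68.8% (64.7 to 72.7), so presence of a day 0 DHS peak did not go with a larger day 2 PPARgamma share.

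Sites with and without PPARgamma on day 2 had nearly the same shares in the DHS lists of 2 and 4 hours and a gap on day 1 and day 2. Of the 476 with it and the 230 without it, 51.1% and 53.0% were in the DHS 2 hours list, and 84.9% and 83.5% in that of 4 hours. For DHS day 1 the shares were 91.8% (89.0 to 94.1) and 84.8% (79.5 to 89.2), with intervals that overlapped slightly. For DHS day 2 the shares were 96.4% (94.3 to 97.9) and 86.1% (80.9 to 90.3), and for DHS day 6 they were 48.9% and 41.7%, with overlapping intervals of 44.4 to 53.5 and 35.3 to 48.4. RXR peaks at 4 hours overlapped 62.8% and 42.2%. Among peaks in the DHS day 2 list, whatever their other DHS lists, PPARgamma day 2 was present at 69.9% of multi-factor sites (66.2 to 73.4). It was present at 52.2% of 2-factor, 50.1% of 1-factor and 49.8% of 0-factor peaks.

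RNA Pol II, the enzyme that transcribes protein-coding genes, had few peaks at these sites. Its day 0 list overlapped 45 of them (6.37%, interval 4.69 to 8.44), against 7.74% of all PPARgamma day 6 peaks. Its 4 hours list overlapped 62 (8.78%, 6.80 to 11.1), against 7.28%. Both shares are near the background. The C/EBP and Stat5a combination had the largest day 0 share, 10 of 74 sites (13.5%), with an interval of 6.68 to 23.5. Sites in the DHS day 6 list had an RNA Pol II day 0 peak in 10.9% (7.78 to 14.8), and those outside it in 2.39% (1.10 to 4.48).

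Where peaks of the other lists overlapped the sites, their middles lay close to that of the PPARgamma peak. Only overlapping peaks were measured, and for the 5 early factors the rule itself selected overlap. Among sites overlapped by the list in question, the median distance from the middle of the PPARgamma day 6 peak was 61.8 bp to PPARgamma day 2, 69.5 bp to C/EBPbeta 4 hours, 73.0 bp to RXR, 76.2 bp to Stat5a, 78.5 bp to GR and 79.5 bp to C/EBPdelta. For DHS peaks the medians were 85.8 bp at 4 hours, 75.5 bp on day 2 and 80.5 bp on day 6. A PPARgamma day 2 peak lay within 100 bp at 70.0% of its 476 sites, near the 68.2% (median 66.0 bp) of the 1640 other PPARgamma day 6 peaks that had one. The other PPARgamma day 6 peaks had medians of 81.0 bp to C/EBPbeta 4 hours and 101 bp to C/EBPdelta, and of 66.5 bp to RXR in the 25 that overlapped it. To Stat5a the median at the other PPARgamma day 6 peaks was longer, 142 bp in the 69 that overlapped it. It was 108 bp to GR in 27 peaks, and 130 bp to DHS 4 hours. Distances as short as at the multi-factor sites were thus found at other PPARgamma day 6 peaks for PPARgamma day 2 and RXR. They were somewhat longer there for the C/EBPs and longer still for Stat5a and DHS 4 hours. For GR only the median was longer there. The GR quartiles at the other peaks (27.8 and 152 bp) were shorter than at the multi-factor sites (34.8 and 160 bp). At the 212 sites where peaks of all 5 early factors overlapped the PPARgamma peak directly, the nearest was C/EBPbeta at 50, RXR at 45, GR at 44, Stat5a at 42 and C/EBPdelta at 30, with 1 tie. No factor was nearest at more than 23.6% of them.

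**Figure D4:**
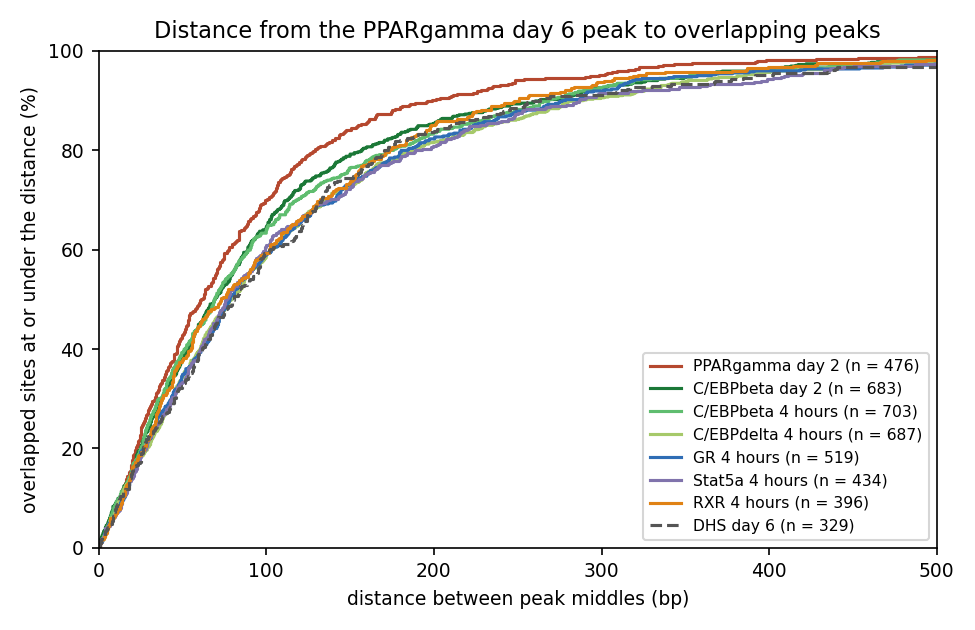
Cumulative share (%) of the multi-factor sites overlapped by each list, against the distance in bp between the middle of the PPARgamma day 6 peak and that of the overlapping peak, up to 500 bp. The PPARgamma day 2 curve lies furthest to the left, with a median of 61.8 bp and 70.0% of sites within 100 bp, and the early factors follow with medians of 69.5 to 79.5 bp.

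Seen from the early regions, most places with 3 or more factors had no PPARgamma on day 6: 704 of the 5536 such regions overlapped a PPARgamma day 6 peak and 4832 did not. The gap between the 2 groups in open chromatin was wider on day 2 and day 6 than at 2 and 4 hours. DHS peaks lay at 52.7% of regions with PPARgamma and 39.7% without it at 2 hours, at 84.8% and 69.1% at 4 hours, at 93.3% (91.2 to 95.1) and 50.8% (49.4 to 52.2) on day 2, and at 47.0% (43.3 to 50.8) and 9.42% (8.61 to 10.3) on day 6. C/EBPbeta day 2 peaks lay at 97.2% and 71.6%. The regions were of like width, with medians of 856 and 814 bp, and in the 200 bp at their middle the DHS day 6 shares were 43.6% and 8.40%.

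Which regions had PPARgamma varied by combination, and day 2, which the rule did not use, gave the same order of these combinations as day 6. The C/EBPs with GR and RXR had PPARgamma day 2 at 32.7% of 275 regions (27.2 to 38.6), all 5 factors at 25.4% of 938 (22.6 to 28.3), the C/EBPs with RXR at 17.3% of 381 (13.7 to 21.5) and with Stat5a and RXR at 14.1% of 248 (10.0 to 19.1). The combinations without RXR stood lower: the C/EBPs with GR at 10.0% of 1056, with GR and Stat5a at 9.85% of 1005 and with Stat5a at 4.84% (3.78 to 6.10) of 1404. C/EBPbeta with GR and Stat5a, without C/EBPdelta, stood at 1.91% of 157.

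**Figure D5:**
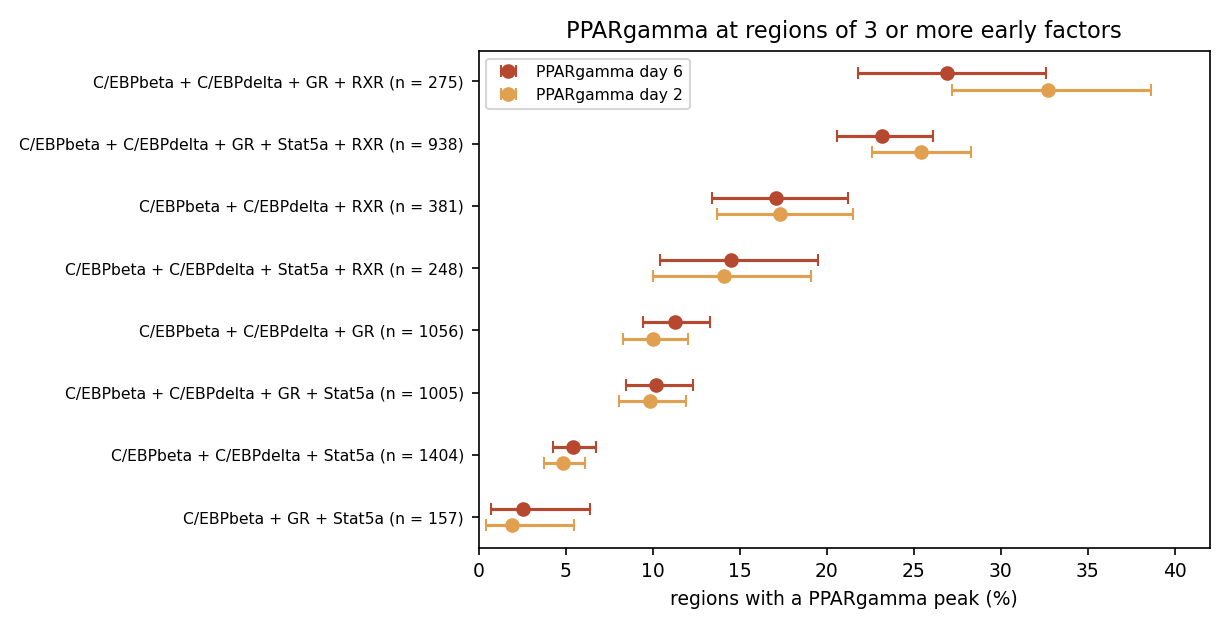
Share of early regions (%) that overlap a PPARgamma peak on day 6 and on day 2, for each combination of 157 or more regions; bars are exact 95% intervals over regions. The C/EBPs with GR and RXR are highest (26.9% on day 6, 32.7% on day 2), and C/EBPbeta with GR and Stat5a is lowest (2.55% and 1.91%).

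PPARgamma had a peak at 473 of the 5536 regions on both days, at 242 on day 2 but not day 6, and at 231 on day 6 but not day 2. The 242 regions with day 2 PPARgamma alone were open on day 2 like the shared ones, with DHS peaks at 92.6% against 96.6%, but not on day 6, at 17.8% against 49.3%. The 231 with day 6 PPARgamma alone stood at 86.6% and 42.4%. The 4590 regions with neither stood at 48.6% and 8.98%.

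Individual sites show the range. The median site was overlapped by peaks of 13.0 of the 19 lists, and 92 sites by 16 or more. Both chr6:138089414-138091080 (1667 bp) and chr6:52110418-52111428 (1011 bp) were in all 19, so they were bound by C/EBPbeta and C/EBPdelta and open on day 0, carried all 5 factors at 4 hours, and had PPARgamma on day 2. The middles of the PPARgamma day 2 and day 6 peaks were 232 bp apart at the former and 64.5 bp apart at the latter. In 18 lists stood chr2:46297960-46299673, absent from DHS day 0 alone, chr10:117145784-117147225, where RXR alone was absent, and chr2:31625972-31626973, where RNA Pol II at 4 hours alone was absent.

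The widest site of each combination gave other courses. At chr2:65065002-65066864, with all 5 factors and 13 lists, C/EBPbeta was first listed at 2 hours, and DHS ran from 2 hours through day 2 without day 6. The widest site of the C/EBPs with GR and Stat5a, chr7:119638357-119640053, had PPARgamma on day 2 but lacked C/EBPbeta on day 0 and day 2 and DHS on day 6. At chr13:53071346-53073005, with the C/EBPs and Stat5a, 16 lists had a peak, RNA Pol II at both times among them. The C/EBPs with GR had chr4:32656752-32659003, in 13 lists, open from 2 hours through day 6. The C/EBPs with Stat5a and RXR had chr1:178942755-178944856, in 13 lists, open from 4 hours through day 6.

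Some wide sites had PPARgamma in the day 6 list and not in that of day 2. The widest of all, chr19:53854480-53856854 (2375 bp; the C/EBPs, GR and RXR), had no PPARgamma day 2 peak though it was in all 6 DHS lists. At chr6:21753517-21755627 (the C/EBPs and RXR), in 9 lists, DHS was first listed at 4 hours and C/EBPbeta at 4 hours too. At chr6:17058986-17060623 all 5 factors were present at 4 hours and DHS was listed from 2 hours. Open at all 6 times with PPARgamma on both days were chr1:169317136-169319281 and chr19:4497129-4498982.

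The 3 widest sites in no DHS list were chr14:26736927-26738314, chr14:26876689-26878076 and chr14:27016303-27017690. Each was 1388 bp wide, lay in a region of 962 bp, and was in 11 lists, with all 5 factors and PPARgamma on both days. They followed each other at steps of 139762 and 139614 bp, and 9 of the 11 peaks under each stood at the same offsets. A further pair, chr13:12894468-12895253 and chr13:13099782-13100567, had the same width (786 bp) and offset in its region, but only 7 of 13 peaks stood at the same offsets, and the former was in 2 DHS lists and the latter in 1. The same width and offset were thus seen at 5 sites in 2 groups, and counting each group as 1 gave 703 sites. Whether these stretches are repeats of each other in sequence was not tested.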

How the data were processed

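Peaks of 6 DHS-seq and 13 ChIP-seq libraries of 3T3-L1 cells were used as the authors deposited them: chromosome, start and end in base pairs, on mm9 per the submitters' processing notes. The peak caller, its threshold and the read depth are not given in the sources used here, so precision rests on the number of peaks. The input library was not analysed here. Overlapping peaks of the 5 factor lists of 4 hours were merged, and each PPARgamma day 6 peak took the largest number of factors among the regions it overlapped by at least 1 bp. Shares carry exact 95% intervals. The sites and the lists were chosen with earlier results of these data known. Named sites were the 5 in most lists, the widest of each combination of 20 or more sites, and the 3 widest in no DHS list, in all DHS lists and without PPARgamma day 2. Alternatives changed the overlap, gap, peak width, list length, number of factors and window. Counting repeated layouts as 1 and leaving out RXR were added after the data were seen. Intervals were computed with SciPy 1.17.1 and NumPy 2.4.6 under Python 3.11.15, and figures were drawn with Matplotlib 3.10.9. Counting of factor peaks directly under the PPARgamma peak was checked on simulated data. The merging of regions was not part of that simulation.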

Additional observations from a re-analysis of the deposited data

How the results depend on the processing

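No paired analysis was possible because each group had 1 library, and for the same reason no library could be left out within a group. The number of sites was 687 with an overlap of 50% of the shorter peak, 771 with gaps of up to 500 bp, 601 with every peak set to 200 bp, 698 with factors counted under the PPARgamma peak itself, 703 with repeated layouts counted as 1 and 633 without RXR. It was 254 in the wider part of each list (the wider 50% of peaks), 436 with 4 or more factors and 448 with the C/EBPs counted as 1. Of 95 recomputed counts and shares, 65 stayed within the interval or tolerance. The 80 recomputed differences from 0-factor peaks all kept their sign, from 9.36 to 75.9 percentage points. The alternative with DHS lists of equal length was not among them. With peaks of 200 bp, C/EBPbeta day 2 was at 91.5% of sites, and the DHS lists of day 0, 2 hours, 4 hours, day 1, day 2 and day 6 at 18.1%, 47.1%, 75.9%, 81.7%, 84.5% and 41.6%. In the wider part of each list the same DHS shares were 14.2%, 44.9%, 68.9%, 83.1%, 90.2% and 36.2%. With 4 or more factors, PPARgamma day 2 was at 70.9%, C/EBPbeta day 2 at 97.9%, and DHS at 61.9% (2 hours), 87.8% (4 hours) and 92.4% (day 1). With the C/EBPs counted as 1, these DHS shares were 61.4%, 87.5% and 92.4%. In the 200 bp at the middle of the PPARgamma peak, C/EBPbeta day 2 was at 94.1% and DHS day 1 at 86.3%. With DHS lists of equal length, the shares were 41.1% at 4 hours, 48.7% on day 1, 68.6% on day 2 and 35.1% on day 6. Narrower peaks, shorter lists and a stricter rule are built into these alternatives, and beyond that the cause was not tested. Depth is unknown and limits what absence from a list can mean.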

Other observations

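The multi-factor PPARgamma sites were spread over the chromosomes with some unevenness. Chromosome 6 held 92 of them, 13.0% of the sites, against 11.1% of all PPARgamma day 6 peaks and 9.59% of the early regions with 3 or more factors. They made up 15.2% (exact 95% interval 12.4 to 18.3) of the PPARgamma day 6 peaks on chromosome 6, 16.4% of those on chromosome 19 (43 sites) and on chromosome 13 (33 sites), and 7.50% (4.86 to 11.0) of those on chromosome 11 (24 sites). These chromosomes were picked after their values were seen.

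Most sites stood alone. The median distance to the nearest other site was 350286 bp, and 149 sites (21.1%) had another within 50 kb. At that distance 557 sites were single, 58 runs held 2, 8 held 3, 1 held 4 and 1 held 5. The run of 5, chr6:129096806-129180612, was in the DHS day 6 list at all 5 sites and had PPARgamma day 2 peaks at 2 of them. Its 7 PPARgamma day 6 peaks included 2 that were not multi-factor sites. The run of 4 was chr19:44461673-44512967. The 3 sites within 4344 bp at chr6:115370674-115375017 all had PPARgamma day 2, DHS 4 hours and DHS day 6 peaks, and none had a DHS day 0 peak. These runs too were picked after their values were seen.

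At 10 sites the rule was met by the region, with fewer than 3 factor peaks under the PPARgamma peak itself. Of all 706 sites, the one in the fewest lists was chr1:170275051-170275651: it was in 2 of the 19 lists, PPARgamma day 6 and GR at 4 hours, and touched the edge of a region that also held both C/EBPs. It was picked after its values were seen. Presence in 3 or more of the 6 DHS lists, counted over all sites, was 79.6% (76.4 to 82.5) for multi-factor sites, 57.8% for 2-factor, 42.7% for 1-factor and 15.8% for 0-factor peaks.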
